A study of Arabidopsis thaliana with 8 samples.

Results

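The effect of losing RDR6 in plants that already lack DDM1 was read from 4 of the 8 arrays of the series, the 2 of the double mutant ddm1-2 rdr6-15 and the 2 of ddm1-2. All probe sets except the 64 Affymetrix controls were compared, which left 22746 of 22810. RNA came from inflorescences of Arabidopsis thaliana with flowers of stages 9 to 12, and it was hybridised to Affymetrix ATH1 arrays, 6 ug of total RNA per array. Both genotypes carry the ddm1-2 allele, and the double mutant carries rdr6-15 as well. The other arrays are 2 of rdr6-15 alone and 2 of Col-0, the wild type, and their values are given as points of reference. The 2 arrays of a genotype are labelled as biological replicates of pooled tissue (n = 3 per the labels), and nothing is said of the number of plants or of the generation in which ddm1-2 was grown.

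DDM1 is a chromatin remodeller that lets DNA methyltransferases reach nucleosome-bound heterochromatin, and transposons lose methylation and are transcribed in its absence. RDR6 makes double-stranded RNA from cleaved transcripts, often those cut by a microRNA, and from it Dicer-like enzymes cut secondary small interfering RNAs. These RNAs can guide Argonaute proteins to further transcripts, as in the trans-acting siRNA pathway. The comparison asks which transcripts released in ddm1-2 change in level when RDR6 is also lost.

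Values are log2 signals. The level that a probe set shows without its transcript was read from 27 probe sets for Bacillus transcripts, whose means over the arrays were 2.27 to 2.76 except for 1 at 3.56. Means no higher than 3.56 are given as control level, and for a called probe set whose double mutant mean or array lies there a lower limit of the difference is given, in which array values under control level are set to it. By this measure 10065 of the 22746 probe sets were at control level in both genotypes. The correlation over probe sets (features, not replicates) was 0.981 between the double mutant arrays, 0.988 between the ddm1-2 arrays and 0.976 to 0.985 between arrays of the different genotypes. The spread for the test was estimated from all 8 arrays, and rdr6-15 replicate 1 stands apart: 3704 probe sets differed by over 1 log2 unit between the rdr6-15 arrays, against 297 in the double mutant, 152 in ddm1-2 and 110 in Col-0. Results are therefore also given without that array, which takes no part in the difference itself. No probe set is paired with RDR6 or DDM1 in the annotation used here, so the targeted genes were not checked.

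Loss of RDR6 in ddm1-2 plants was accompanied by lower signal at a small group of annotated pseudogenes. The 5 named transposon loci matched on this array carry that annotation, but transposons were not counted by class. There were 12 probe sets lower in the double mutant than in ddm1-2 (0.0528% of those tested) and 1 higher (0.0044%), by limma with an adjusted p under 0.05, which makes 13 in either direction (0.0572%), and 616 had an unadjusted p under 0.05. The samples are bulk tissue, in which fewer cells of a type and less RNA per cell cannot be told apart. Annotated pseudogenes were 10 of the 12, beside 998 of 22746 probe sets tested, and 9 of the 12 have probe sets that related sequences share, so that a signal may come from several loci and the falls may not be separate. Control level was found for 11 of the 12 in rdr6-15 and Col-0 alike, AT3G47260 being the exception, and for 8 in the double mutant. The calls depend on single arrays: 0 were left without either ddm1-2 array or without replicate 2 of the double mutant, 1 without either Col-0 array, and 11 without replicate 1 of the double mutant, 5 of them among the 12. Without either rdr6-15 array there were 39 lower (0.171%) and 5 higher (0.022%), the 13 among them.

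The clearest case with a probe set of its own was AT3G30610, an annotated pseudogene of chromosome 3. It had 2.42 and 2.54 in the double mutant, against 6.01 and 6.26 in ddm1-2, with 2.55 and 2.62 in rdr6-15 and 2.53 and 2.41 in Col-0. The ddm1-2 arrays are the high ones, and the double mutant arrays lie among those of the genotypes with functional DDM1. The difference was -3.65 (SE 0.16, 95% interval -4.04 to -3.26, adjusted p = 0.00298 by limma), or at least 2.58 below ddm1-2 when measured from control level. It was the 1 lower probe set called without either Col-0 array, with the replicate number as block (adjusted p = 0.02), and with shared probe sets left out.

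AT4G29200, the 1 protein-coding locus of the 12, also has its own probe set. It had 2.38 and 2.60 in the double mutant, against 5.92 and 7.18 in ddm1-2. Both double mutant arrays were at control level, as were those of Col-0 with 2.96 and 2.51. The difference was -4.06 (SE 0.41, adjusted p = 0.0457), at least 2.99 from control level. Probe set 252722_at, with no gene listed, had 3.17 and 2.86 in the double mutant, against 5.52 and 5.99 in ddm1-2 (difference -2.74, at least 2.20 from control level, adjusted p = 0.0457).

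The 4 largest of the 12 differences were those of pseudogenes with shared probe sets, and the other 5 shared pseudogenes had smaller ones than AT4G29200 and AT3G30610. AT2G15140 had 4.25 and 2.75 in the double mutant, against 8.61 and 8.85 in ddm1-2, a difference of -5.23 (SE 0.45, adjusted p = 0.0381), at least 4.83 from control level. AT3G32900 had 4.31 and 2.95 in the double mutant, against 8.09 and 8.98 in ddm1-2 (difference -4.91, at least 4.60 from control level, adjusted p = 0.0457). AT3G47260 kept signal above control level, with 5.73 and 4.40 in the double mutant, against 9.57 and 9.88 in ddm1-2 (difference -4.66, adjusted p = 0.0381). In these 3 the double mutant replicates differ by more than 1 log2 unit, and replicate 1 is the higher. In AT4G03790 the replicates lie close, with 3.78 and 3.49 in the double mutant, against 7.78 and 7.75 in ddm1-2 (difference -4.13, at least 4.10 from control level, adjusted p = 0.0457).

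Weaker transcripts of the same class fell to control level. AT2G13890 had 2.66 and 2.40 in the double mutant, against 5.67 and 6.36 in ddm1-2 (difference -3.49, at least 2.46 from control level, adjusted p = 0.024). AT2G14350 had 3.61 and 2.66 in the double mutant, against 6.14 and 6.51 in ddm1-2 (difference -3.19, at least 2.74 from control level, adjusted p = 0.0457). For AT3G33066 the values were 3.13 and 3.13 in the double mutant, against 5.70 and 5.96 in ddm1-2 (difference -2.70, at least 2.27 from control level, adjusted p = 0.024). In each of these 3 both ddm1-2 arrays lie over 2 log2 units above both double mutant arrays. AT1G42360, just above control level on average with 3.89 and 3.56 in the double mutant, had 5.99 and 6.13 in ddm1-2 (difference -2.33, adjusted p = 0.0381). AT3G31540, the lowest of the 12 in ddm1-2, had 2.42 and 2.29 in the double mutant, against 4.61 and 4.59 in ddm1-2 (difference -2.24, at least 1.04 from control level, adjusted p = 0.0381).

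**Figure D1:**
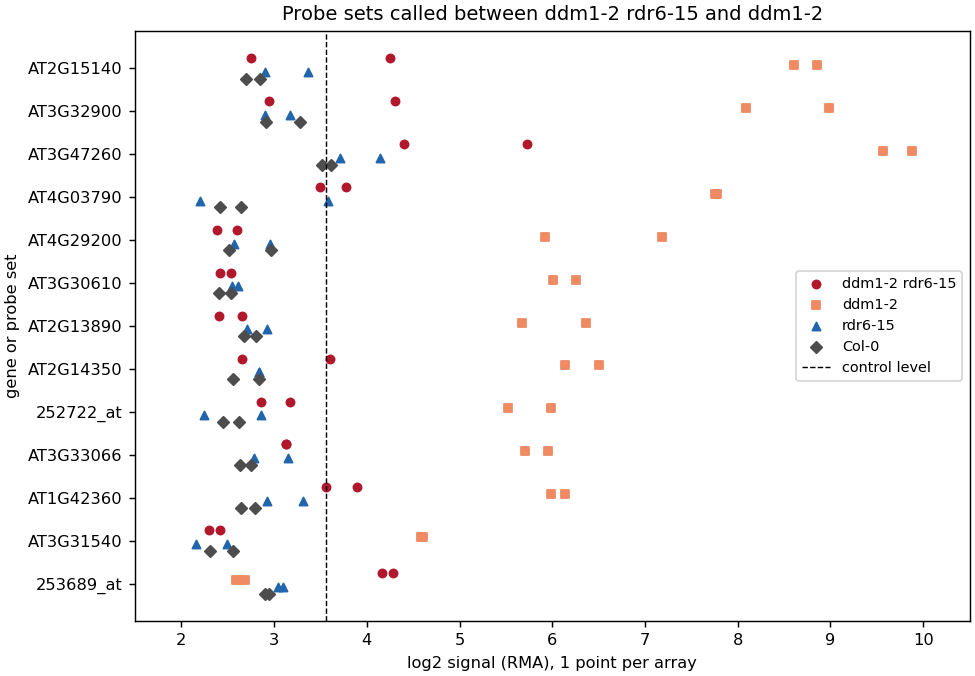
Log2 signal on each of the 8 arrays (horizontal axis) for the 13 probe sets called between the double mutant and ddm1-2, ordered by difference, with 2 points per genotype and a dashed line at control level (3.56). In the first 12 rows the 2 ddm1-2 arrays stand to the right of the 6 others, and in the last row the 2 double mutant arrays do.

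The 1 probe set called higher, 253689_at, has no gene listed. It had 4.17 and 4.28 in the double mutant, against 2.59 and 2.68 in ddm1-2, a difference of 1.59 (SE 0.15, adjusted p = 0.0457). It was at control level in the other 3 genotypes, so from that level the rise is at least 0.67.

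The interaction compares the loss of RDR6 in ddm1-2 plants with its loss in plants that have DDM1 (rdr6-15 against Col-0). It was called for 2 probe sets (0.00879%, with 1430 at an unadjusted p under 0.05), AT3G30610 with -3.76 (SE 0.23, adjusted p = 0.0249) and QQS with -4.43 (adjusted p = 0.0277). Without rdr6-15 replicate 1, where rdr6-15 replicate 2 stands alone and is assumed to vary like the other genotypes, 41 were called (0.18%). Each of the 12 lower probe sets was among them, with values from -5.36 for AT2G15140 (adjusted p = 0.0222) to -1.97 for AT3G31540 (adjusted p = 0.0351). Since most lie at control level in rdr6-15 and in Col-0, a difference between those genotypes under that level could not be seen. The interaction also contains the difference by which the 12 were chosen, so their interaction calls are no separate support.

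The next lowest differences that did not pass were all annotated pseudogenes with shared probe sets. The 10 uncalled genes lowest by difference, without overlap between the arrays of the genotypes, ranged from -4.84 to -3.41, with adjusted p from 0.0675 to 0.441. AT2G02210 had 4.55 and 2.83 in the double mutant, against 8.44 and 8.62 in ddm1-2 (adjusted p = 0.082). AT1G37160 had 5.53 and 5.21 in the double mutant, against 8.88 and 8.68 in ddm1-2 (adjusted p = 0.0675). The others were AT2G14130, AT3G44500, AT2G06430, AT3G30440, AT4G04010, AT5G34900, AT1G32840 and AT2G04980, with means of 4.14 to 5.40 in the double mutant and 8.25 to 9.54 in ddm1-2. In 9 of the 10 replicate 1 of the double mutant exceeded replicate 2 by over 1 log2 unit, AT1G37160 being the exception. Without rdr6-15 replicate 1 all 10 were called, from an adjusted p of 0.000128 for AT1G37160 to 0.0218 for AT2G04980.

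In that fit 32 of the 39 lower probe sets were annotated pseudogenes, 26 of the 39 had shared probe sets, and 30 were at control level in Col-0. Over all 22746 probe sets tested, 998 were annotated pseudogenes and 1061 were shared. The number at control level in Col-0 was not counted over all probe sets. Pseudogenes with their own probe sets in that fit were AT3G30610, AT4G05640, AT3G15310, AT5G44880, AT3G33080 and AT3G45360, named after their values were seen. AT3G45360 was at control level in both genotypes by its means. AT4G05640 differs from the rest in its level: it had 7.59 and 7.71 in the double mutant, against 9.68 and 9.94 in ddm1-2, and 3.59 and 3.05 in Col-0 (difference -2.16, adjusted p = 0.0035 without rdr6-15 replicate 1 and 0.0909 with it). Its signal in the double mutant lay over 4 log2 units above both Col-0 arrays. AT3G33080 had 4.87 and 5.07 in the double mutant, against 6.39 and 7.25 in ddm1-2 and 2.35 and 2.18 in Col-0 (difference -1.85, adjusted p = 0.0407 without rdr6-15 replicate 1 and 0.355 with it). AT3G15310 had 2.65 and 2.55 in the double mutant, against 4.39 and 5.14 in ddm1-2 (difference -2.16, at least 1.21 from control level, which both double mutant arrays lie under, adjusted p = 0.0067 without that array).

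To place these falls among the transcripts released by ddm1-2, the probe sets higher in the ddm1-2 effect averaged over both RDR6 genotypes were followed. The difference between the double mutant and ddm1-2 does not enter that average, although the estimate of spread is shared. There were 104 probe sets higher in that average (0.457% of those tested), of which 84 were annotated pseudogenes, 12 protein-coding and 8 without a single gene listed. Over the 104 the median difference of the double mutant from ddm1-2 was -0.50, and over all probe sets 0.02. A probe set can enter the 104 through high ddm1-2 arrays alone, as AT3G30610 did, and 10 were at control level in the double mutant, so the counts describe the set and support no direction. The pseudogenes covered a wide range of differences: among the 84 24 were at least 2 log2 units lower, 5 were 1 to 2 lower, 15 were 0.5 to 1 lower, 38 stayed within 0.5 and 2 were at least 0.5 higher.

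**Figure D2:**
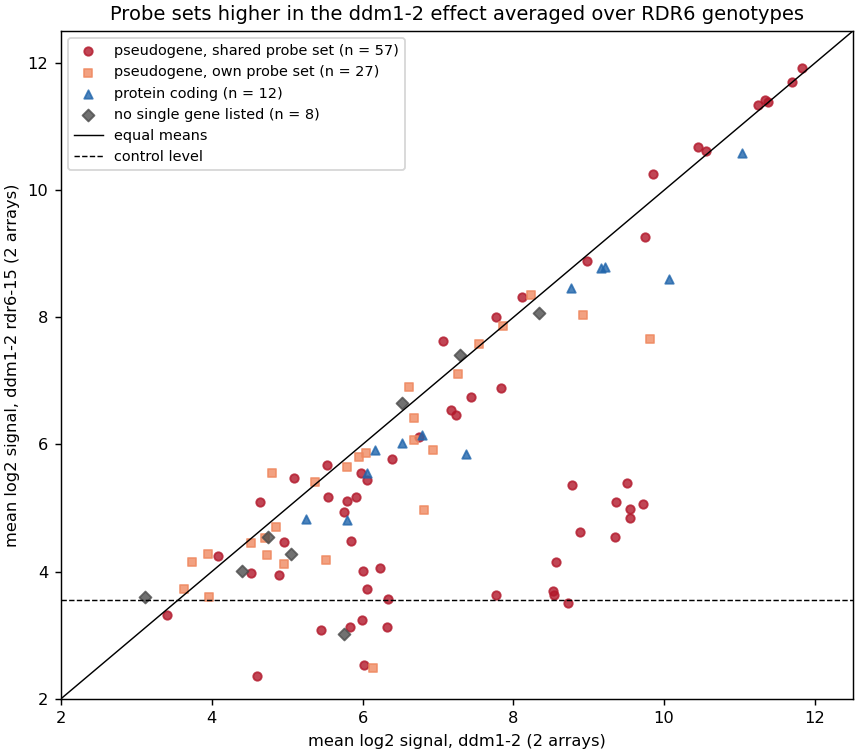
Mean log2 signal in the double mutant (vertical axis, 2 arrays) against that in ddm1-2 (horizontal axis, 2 arrays) for the 104 probe sets higher in the averaged ddm1-2 effect, with symbols for the 4 classes, a line of equal means and a dashed line at control level (3.56). Transcripts above 10 in both genotypes lie near the line, which follows in part from asking for high means in both. AT1G59930, with a mean of 10.07 in ddm1-2, lies at 8.60 in the double mutant. A group of shared pseudogene probe sets with 8 to 10 in ddm1-2 lies at about 3.5 to 5.4 in the double mutant.

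The 7 pseudogenes of the set with means above 10 in ddm1-2 stayed within 0.5 log2 units, while some just under 10 in ddm1-2, such as AT3G47260 and AT4G05640, did not. AT2G13160 had 11.98 and 11.87 in the double mutant, against 11.64 and 12.02 in ddm1-2, and the 95% interval of the difference was -0.52 to 0.71. AT3G30396 had 11.65 and 11.75 in the double mutant, against 11.57 and 11.84 in ddm1-2 (interval -0.47 to 0.47). AT2G04770, with a ddm1-2 mean just under 10, had 10.25 and 10.26 in the double mutant, against 9.66 and 10.05 in ddm1-2 (interval -0.07 to 0.87). These 3 have shared probe sets. Those with their own include AT4G04590, with 7.77 and 7.96 in the double mutant, against 7.71 and 8.02 in ddm1-2 (interval -0.45 to 0.45), and AT1G34530, with 7.89 and 8.82, against 8.02 and 8.45 (interval -0.63 to 0.86). These examples were taken from the pseudogenes within 0.5, so intervals near 0 follow in part from that choice. The intervals leave out a fall of 1 log2 unit but take no account of the choice. The 12 called probe sets, each with a measured difference beyond -2, were likewise chosen by their difference, so the 2 groups are no test of each other. The 2 pseudogenes at least 0.5 higher were AT1G53810, with 5.63 and 5.48 in the double mutant, against 4.71 and 4.89 in ddm1-2 (adjusted p = 1), and AT2G12250, with a difference of 0.57.

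The 2 kinds of probe set differed in their medians. The 57 shared pseudogene probe sets had a median difference of -0.74, with 22 at least 2 lower and 20 within 0.5. The 27 with their own had one of -0.16, with 2 at least 2 lower, AT3G30610 and AT4G05640, and 18 within 0.5. Shared probe sets may count few transcripts many times, so these counts are not counts of loci. The 914 other pseudogene probe sets had a median difference of 0.07, and 832 of them were at control level in the double mutant. Over all 998 the median was 0.06, with 359 below 0.

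Among the 24 pseudogenes at least 2 log2 units lower, the medians were 4.32 and 3.41 in replicates 1 and 2 of the double mutant, 8.26 and 8.64 in ddm1-2, 3.46 and 2.89 in rdr6-15, and 2.94 and 2.86 in Col-0. For 11 of the 24, replicate 1 of the double mutant exceeded replicate 2 by over 1 log2 unit, and for 0 the reverse. Over all probe sets 218 differed by over 1 in the first direction and 79 in the second. The late pollen genes differ between these replicates too, with medians over 9 probe sets of 4.23 and 2.78, as described further on, and whether the 2 patterns are connected was not tested.

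**Figure D3:**
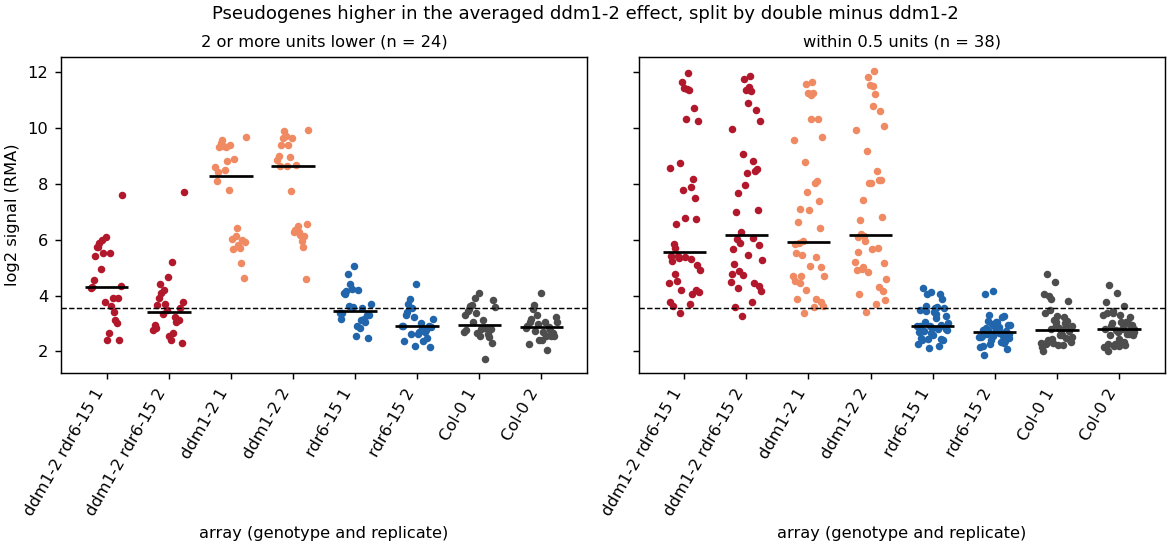
Log2 signal on each of the 8 arrays for the pseudogenes higher in the averaged ddm1-2 effect, those at least 2 log2 units lower in the double mutant than in ddm1-2 (left, 24) and those within 0.5 (right, 38), with 1 point per probe set, a bar at the median and a dashed line at control level. The panels are split by the difference itself, so the distance between the double mutant and ddm1-2 in each follows from the split. On the left the double mutant medians are 4.32 and 3.41, against 3.46 and 2.89 in rdr6-15 and 2.94 and 2.86 in Col-0.

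Of the 12 protein-coding loci higher in the averaged ddm1-2 effect, 0 were called between the double mutant and ddm1-2, beside 0.0572% of all tested. Among the 12, 6 stayed within 0.5, 4 were 0.5 to 1 lower and 2 were 1 to 2 lower. Their median was -0.48, beside -0.61 for the 84 pseudogenes, and whether the classes differ was not tested. AT1G58025 had 10.59 and 10.58 in the double mutant, against 11.08 and 10.99 in ddm1-2 (difference -0.45, 95% interval -0.82 to -0.08). AT2G15560 had 8.29 and 8.62 in the double mutant, against 8.62 and 8.90 in ddm1-2 (interval -0.85 to 0.24). AT1G59930, with a shared probe set, had 8.43 and 8.77 in the double mutant, against 10.17 and 9.97 in ddm1-2 (difference -1.47, adjusted p = 0.38). The other with a difference beyond 1 was QQS, an orphan gene that affects starch and protein content and is silenced by DNA methylation. QQS had 5.83 and 5.87 in the double mutant, against 7.22 and 7.52 in ddm1-2, with 7.08 and 6.79 in rdr6-15 and 3.81 and 4.25 in Col-0. Its difference of -1.52 did not pass over all arrays (adjusted p = 0.201) and passed without rdr6-15 replicate 1 (adjusted p = 0.0218). In plants with DDM1 the difference made by rdr6-15 had the other sign, 2.90 over Col-0, which gives the interaction above. QQS was the 1 gene matched of 8 listed as silenced by methylation.

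Outside the transcripts raised by ddm1-2, a few genes that are expressed in Col-0 differed between the double mutant and ddm1-2. The values that follow were called without rdr6-15 replicate 1 and not with it, and the genes were named after their values were seen. AT1G72290, a Kunitz-type protease inhibitor, had 3.71 and 3.43 in the double mutant, against 5.45 and 6.14 in ddm1-2 and 4.93 and 5.03 in Col-0 (difference -2.22, adjusted p = 0.0056 without that array). OPCL1, a CoA ligase of jasmonate synthesis, had 5.23 and 5.27 in the double mutant, against 6.49 and 6.52 in ddm1-2 and 6.24 and 6.69 in Col-0 (difference -1.25, adjusted p = 0.0452 without that array). AT2G27080 had 3.02 and 2.72 in the double mutant, against 3.97 and 4.16 in ddm1-2 (difference -1.20, at least 0.51 from control level, which both double mutant arrays lie under, adjusted p = 0.05, just under the threshold, without that array). For OPCL1 and AT2G27080 the ddm1-2 arrays lie among or next to those of Col-0, and in all 3 both double mutant arrays lie below both arrays of ddm1-2 and of Col-0. For OPCL1 and AT2G27080 the interaction in the same fit had adjusted p-values of 0.723 and 0.481.

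In 4 of the 5 probe sets called higher without that array, both ddm1-2 arrays lay below the other 6, and in 245668_at rdr6-15 replicate 1 was lower still. Probe set 253689_at is among the 4, but its ddm1-2, rdr6-15 and Col-0 arrays all lay under control level, so their order is not measured signal. CCL, a gene with a clock-controlled and unstable transcript, had 9.46 and 9.16 in the double mutant, against 7.55 and 7.93 in ddm1-2 and 9.41 and 8.89 in Col-0. Its difference was 1.57 (SE 0.26, 95% interval 0.95 to 2.19, adjusted p = 0.377 with all arrays and 0.042 without rdr6-15 replicate 1). Probe set 257313_at, with no gene listed, had 10.47 and 10.78 in the double mutant, against 8.53 and 8.59 in ddm1-2 and 10.83 and 10.76 in Col-0 (difference 2.06, adjusted p = 0.0015 without that array). The unnamed probe sets 245668_at and 265478_at were also called higher without that array, with differences of 1.30 and 1.42.

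**Figure D4:**
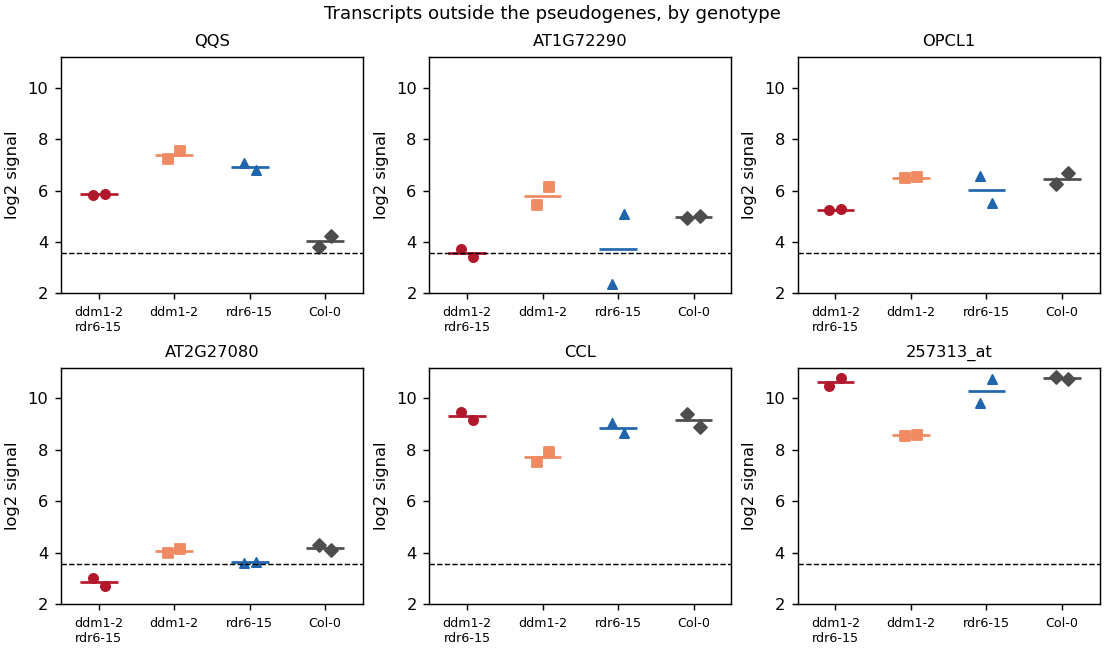
Log2 signal of QQS, AT1G72290, OPCL1, AT2G27080, CCL and probe set 257313_at (vertical axes) in the double mutant, ddm1-2, rdr6-15 and Col-0, with 1 point per array, a bar at each mean of 2 arrays and a dashed line at control level (3.56). QQS, AT1G72290, OPCL1 and AT2G27080 have both double mutant points under both ddm1-2 points, and CCL and 257313_at have them above.

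The other uncalled genes at the high end had differences of 0.83 to 1.78. AT5G52160, of the lipid transfer protein family, had 3.55 and 6.44 in the double mutant, against 3.47 and 2.96 in ddm1-2 (adjusted p = 1). AT5G62080, of the same family, had 4.64 and 6.88 in the double mutant, against 3.98 and 4.39 in ddm1-2 (adjusted p = 1). The means of both rest on replicate 2 of the double mutant. AT3G52130, of the same family, had 5.05 and 5.43, against 4.34 and 4.26 in ddm1-2. SQN, a cyclophilin that promotes the activity of the microRNA effector AGO1, had 4.59 and 5.90 in the double mutant, against 4.22 and 4.58 in ddm1-2, with 3.27 and 3.24 in Col-0 (difference 0.84, adjusted p = 1). AT4G10060 had 4.69 and 4.87 in the double mutant, against 3.61 and 3.39 in ddm1-2. The rest were THI2.1, a thionin, AT2G15960, AT1G65370 and the pseudogene AT4G16870, with differences of 0.98, 0.94, 0.83 and 1.01 (adjusted p = 1 for each).

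Lists of genes by pathway were short on this annotation, and none of their members was called in either direction. Over all 22746 probe sets tested 13 were called (0.0572%), so 0 calls in lists this short is no result about these genes. Of 24 loci of the RNA silencing machinery 2 were matched, SE, a partner of DCL1 in microRNA processing, with a difference of 0.31, and AGO7, the Argonaute of the TAS3 pathway, with -0.08. Of 34 loci for DNA methylation and heterochromatin 1 was matched, the demethylase gene DME, whose 3 probe sets differed by -0.14 to 0.29. Targets of trans-acting siRNAs, which depend on RDR6, had 9 probe sets for 28 loci and a median difference of 0.11. All but AT1G62860, with 3.89 and 3.79 in the double mutant, against 3.47 and 3.56 in ddm1-2, were at control level in both genotypes, as were both probe sets for other sources of secondary siRNAs (median 0.11). Among 5 named transposon loci AtMu1 (AT4G08680) had 3.77 and 3.09 in the double mutant, against 4.18 and 5.16 in ddm1-2 (difference -1.24, adjusted p = 1), and AT2G23480, of the VANDAL21 family, had 4.91 and 5.27 in the double mutant, against 4.70 and 4.59 in ddm1-2 (difference 0.45, adjusted p = 1). The other 3 were at control level, and the list median was 0.08. For UBP1, an RNA-binding protein of stress granules, the list of family members and partners held AT3G14100 and UBA1A, which differed by 0.24 and 0.37.

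Markers of floral cell types and of green tissue were read for both genotypes. The 9 late pollen probe sets had medians of 4.23 and 2.78 in the double mutant, against 4.22 and 3.33 in ddm1-2, and 6.16 and 6.93 in Col-0, with a median difference of -0.24 and 6 of 9 below 0. In the double mutant and in ddm1-2 replicate 1 is the higher, and the arrays of the genotypes overlap for all 9. Of 23 tapetum loci 3 were matched (median difference 0.03), and the A9 gene AT5G07230 had 3.64 and 4.02 in the double mutant, against 3.39 and 4.21 in ddm1-2. Of 20 floral identity loci 3 were matched, SPL, UFO and CLV3, all at control level in both genotypes, so these markers do not show the tissue on this array. The 69 plastid-encoded probe sets had medians of 5.75 and 5.40 in the double mutant, against 6.01 and 5.98 in ddm1-2, with a median difference of -0.21, 56 below 0 and the double mutant arrays below those of ddm1-2 for 27, beside 17.8% of all probe sets, and above them for 2, beside 20% of all. The 3 nuclear photosystem probe sets differed by -0.28 to -0.14. The part of these shifts in the differences above was not tested. The remaining lists had medians of 0.07 for 3 heat shock genes, 0.09 for 2 anthocyanin genes and -0.08 for 3 constitutive genes, with SAG101, the 1 matched gene of 13 for salicylate defence, at -0.14, and 0 of 5 SPL genes of phase change matched.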

How the data were processed

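Per the labels, biotinylated RNA was hybridised to Affymetrix ATH1 arrays. The authors deposited log2 signal for each probe set, summarised with RMA per the submitters' processing notes, which give no version. No scaling was added. Of 22746 probe sets tested, 13513 are paired with a single gene in the platform annotation, 503 with several and 8730 with none, and 13508 were matched to a locus of the TAIR10.1 gene table, used for names, biotypes and chromosomes only. Annotated pseudogenes are loci with a pseudogene biotype (998 probe sets). Shared probe sets have a suffix such as _s_at or _x_at (1061).

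Genotype means were estimated from the 8 arrays together by limma 3.58.1 under R 4.3.3, using lmFit and eBayes (4 residual and 2.82 prior degrees of freedom). P-values are two-sided and adjusted by Benjamini-Hochberg across the whole table, and calls need an adjusted p under 0.05. The number of arrays limits the precision. The code was tested on simulated data.

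Genes named were the probe sets called, the 10 lowest and 10 highest uncalled genes without overlap between arrays and above control level in a genotype compared, members of the lists, and others. All these others were chosen as examples after their values were seen, also where the text does not say so. The high end holds AT5G62080, AT5G52160, CCL and 7 others. The comparison, members, lists and tests were chosen with earlier results of these data known. Plastid genes were taken by chromosome, since the tags planned for them matched no probe set. Alternatives were array weights, the 4 arrays alone, a replicate block, a trended and robust variance, stricter thresholds, other scalings (quantile, median), omission of shared or of dim probe sets, and omission of each array in turn. No sequence table was at hand, and none is printed.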

Additional observations from a re-analysis of the deposited data

Results flagged for a closer look

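QQS and AT3G30610 stood out because the loss of RDR6 had different effects in plants without and with DDM1, by the interaction in limma. QQS had an interaction of -4.43 (adjusted p = 0.0277): the difference made by rdr6-15 was -1.52 in ddm1-2 plants and 2.90 in plants with DDM1, and both arrays of each genotype showed that direction. AT3G30610 had an interaction of -3.76 (adjusted p = 0.0249): the difference was -3.65 in ddm1-2 plants and 0.11 in plants with DDM1, where both genotypes were at control level. Neither was called for the interaction when any 1 array of Col-0, ddm1-2 or the double mutant was left out.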

How the results depend on the processing

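The difference between the double mutant and ddm1-2 gave 12 lower and 1 higher probe sets, 10 annotated pseudogenes among the lower, and 2 interactions. With the replicate number as a block 1 lower, 0 higher, 1 pseudogene and 0 interactions were called. The numbers were taken as shared only: deviations of same-numbered arrays correlated by 0.422 between the double mutant and ddm1-2 and by -0.06 to 0.155 between other genotypes. With only the 4 arrays compared there were 27 lower, 2 higher and 23 pseudogenes, and with those 4 arrays and a replicate block, an alternative chosen after seeing the data, 229 lower, 55 higher and 51 pseudogenes, the original 12, 1 and 10 among them. Array weights gave 35 lower, 3 higher, 31 pseudogenes and 5 interactions, and a trended and robust variance 23 lower, 21 pseudogenes and 4 interactions. Quantile normalization gave 4 interactions, leaving out dim probe sets 0 higher, and an adjusted p under 0.01 gave 1 lower, 0 higher, 1 pseudogene and 0 interactions. Leaving out shared probe sets gave 1 lower, 0 higher and 1 pseudogene, on 21685 probe sets tested. Leaving out 1 array in turn gave 0 to 39 lower, 0 to 5 higher, 0 to 32 pseudogenes and 0 to 3810 interactions, the last without rdr6-15 replicate 2, which leaves replicate 1 as the lone rdr6-15 array. Apart from the alternatives whose own construction removes arrays or probe sets, the cause was not tested. No named gene changed sign under any alternative run. Near control level a difference is measured only as far as the signal rises over background.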

Other observations

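Probe sets lower in the ddm1-2 effect averaged over both RDR6 genotypes were followed in the same way, after their values were seen. There were 12 (0.0528% of those tested). By limma 0 of them were called between the double mutant and ddm1-2, beside 0.0572% of all tested, with differences of -0.32 to 1.11. AT1G05340 had 4.62 and 5.16 in the double mutant, against 4.23 and 4.05 in ddm1-2 and 7.62 and 7.17 in Col-0. Both double mutant arrays thus lay above both of ddm1-2 and below both of Col-0. Plants lacking RDR6 alone had 4.24 and 4.62, so its lower average came from the high Col-0 arrays. The double mutant differed from those plants by 0.46, so no fall with loss of DDM1 was seen there. AGL66, a MADS-box gene of pollen, had 2.95 and 2.65 in the double mutant, against 2.71 and 2.77 in ddm1-2 and 4.08 and 4.45 in Col-0. AT1G18990 and AT5G51030 were likewise at control level in the double mutant and in ddm1-2, with differences of 0.03 and 0.24. Means in plants lacking RDR6 alone were also at control level: 3.24 for AGL66, 2.95 for AT1G18990 and 3.53 for AT5G51030. For these genes only the Col-0 means lay above that level. A fall with loss of DDM1 in plants without RDR6 could therefore not be seen.

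Of the 34 probe sets at least 2 log2 units lower in the double mutant than in ddm1-2, 28 were annotated pseudogenes, beside 998 of the 22746 tested. Those outside the averaged ddm1-2 effect included the protein-coding loci AT1G20400, with 4.90 and 3.26 in the double mutant, against 6.51 and 6.59 in ddm1-2 and 3.38 and 3.15 in Col-0 (adjusted p = 0.62), and AT3G44070, with 4.65 and 3.15, against 6.14 and 6.62 in ddm1-2 (adjusted p = 0.53). In both, replicate 1 of the double mutant exceeds replicate 2 by over 1 log2 unit. Of the 22 probe sets at least 1 log2 unit higher, 2 were annotated pseudogenes, beside the same 998 of 22746. In 7 of the 22 the double mutant replicates differed by over 1 log2 unit, beside 297 of all tested.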
